A study of Mus musculus with 18 samples.

Results

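Genes for the subunits, activators and assembly chaperones of the constitutive proteasome were followed in 2 immortalized mouse embryonic fibroblast lines. They were taken by name: every entry of the deposited tables whose symbol starts with Psma to Psmg followed by a digit, without the immunoproteasome genes Psmb8, Psmb9 and Psmb10. This gave 44 of the 10133 genes listed in any table: 7 alpha and 7 beta genes of the core particle, 6 ATPase genes (Psmc), 14 Psmd genes, 5 activator entries (Psme), 4 chaperone genes (Psmg) and Psmc3ip. The last matches the name pattern but encodes a recombination factor and no proteasome subunit, so it is given apart. Psmf1, Psma8, Psmb11 and Psme3ip1, which the same pattern takes from the RefSeq gene table, were listed at no time.

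One line was wild type (Wild-Type, here WT). The other had the eIF2aS51A genotype (here S51A), in which the serine of translation initiation factor eIF2α that stress kinases phosphorylate is replaced by alanine. Each line was untreated (0 min) or kept in 500 µM H2O2, an oxidant, for 15 or 120 min, giving 6 groups with 3 labelled samples each, 18 in all, although the series design text speaks of duplicates. Because a single line carries each genotype, effects of genotype and of line cannot be told apart, and nothing in the labels says that samples came from separate cultures. Polyadenylated RNA was sequenced, and each of the 3 tables, 1 per time, gives 1 FPKM value per line and gene. FPKM counts fragments per transcript length and per mapped reads, so levels can be set side by side between genes.

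A gene appears in a table when the authors' comparison of the lines gave it a q-value of at most 0.05 at that time. "Higher" and "lower" below always mean S51A against WT and rest on that call. How far samples differed, how many entered a value and how deeply they were read are unknown, so no standard deviation is given, and whether values overlap between samples cannot be seen. Absence from a table leaves the gene's level unknown and does not show that the lines were equal. In bulk RNA, fewer cells of a type and less RNA per cell cannot be told apart. Of 11 fibroblast marker genes 10 were listed at some time, and at 0 min they differed in both directions. Higher in S51A were Col1a1 (241 FPKM in WT, 1160 in S51A), Col1a2 (155 and 1097), Col3a1 (21.7 and 85.6), Pdgfra, Pdgfrb and Fn1. Lower were Vim (1872 and 1075 FPKM), Dcn (54.2 and 8.88) and Thy1 (23.6 and 10.6). The part of these marker differences in the results on proteasome genes was not tested. Of 10 epithelial, endothelial and leukocyte markers only Cd68 was listed, at 1.97 FPKM in WT against 1.11 in S51A at 0 min. The levels of the unlisted markers were not analysed here.

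The proteasome is the main protease for proteins tagged with ubiquitin. Its core particle is a barrel in which outer rings of alpha subunits gate the entry and inner rings of beta subunits carry the proteolytic sites. The regulatory particle caps the barrel: ATPases unfold the substrate, and non-ATPase subunits bind ubiquitin chains and cut them off. Other caps, the Psme activators, open the barrel without ATP-driven unfolding. Proteasomes clear many oxidized proteins, and the transcription factor encoded by Nfe2l1 raises most subunit genes together when proteasome capacity is short.

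Before treatment the proteasome genes were lower in S51A almost without exception. At 0 min 39 of the 44 genes were listed, 36 lower and 3 higher, where 50.4% of all 7555 listed entries were lower and 49.6% higher. The median deposited log2 ratio of the members was -0.83 in the authors' deposited table, against -0.27 for all listed entries. The 3 exceptions were the activator entries Psme1, Psme2 and Psme2b. All 12 listed core genes and all 19 listed Psmc and Psmd genes were lower, and the members' group values ran from 1.52 to 605 FPKM in WT and from 5.28 to 311 FPKM in S51A. Most proteasome genes are abundant and have short transcripts, and both properties moved with direction in the whole table. Of listed entries with at least 50 FPKM in either line 78.7% were lower, against 34 of 36 such members. The part of level and length in the members' direction was not tested.

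After 15 min the same side was seen with smaller differences. Of 35 listed members 30 were lower and 5 higher, where 50.1% of all 8308 listed entries were lower and 49.9% higher. Of entries with at least 50 FPKM in either line 69% were lower, against 29 of 33 such members. The members' median log2 ratio in the authors' deposited table was -0.49, against -0.20 for all listed entries. All 32 members listed at both 0 and 15 min kept their direction. For 26 of the 29 that were lower at both times the ratio was nearer to equality at 15 min, and the others were Psmd1, Psmd2 and Psme3. The shares of all genes listed at both times that kept direction or moved nearer to equality were not computed. Psmb4 and Psmd6, not listed before, were higher at 15 min.

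After 120 min the direction had turned for many members. Of 25 listed members 18 were higher and 7 lower, where 50.9% of all 6119 listed entries were higher and 49.1% lower. Of entries with at least 50 FPKM in either line 62% were higher, against 16 of 22 such members. The median log2 ratio of the members was 0.67 in the authors' deposited table, against 0.41 for all listed entries. Over the 13 members listed at all 3 times it was 0.39, which is not above the 0.41 of all entries listed at 120 min. The median of all entries under the same restriction was not computed. Of the 20 members listed at both 0 and 120 min, 11 went from lower to higher, 6 were lower at both times and 3 were higher at both. The share of all genes listed at both times that made the same turn was not computed, so these counts have no background. A further 19 members that were lower at 0 min were not listed at 120 min. The plot of FPKM by gene and time shows the WT points to the right of the S51A points at 0 min and mostly to their left at 120 min.

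**Figure D1:**
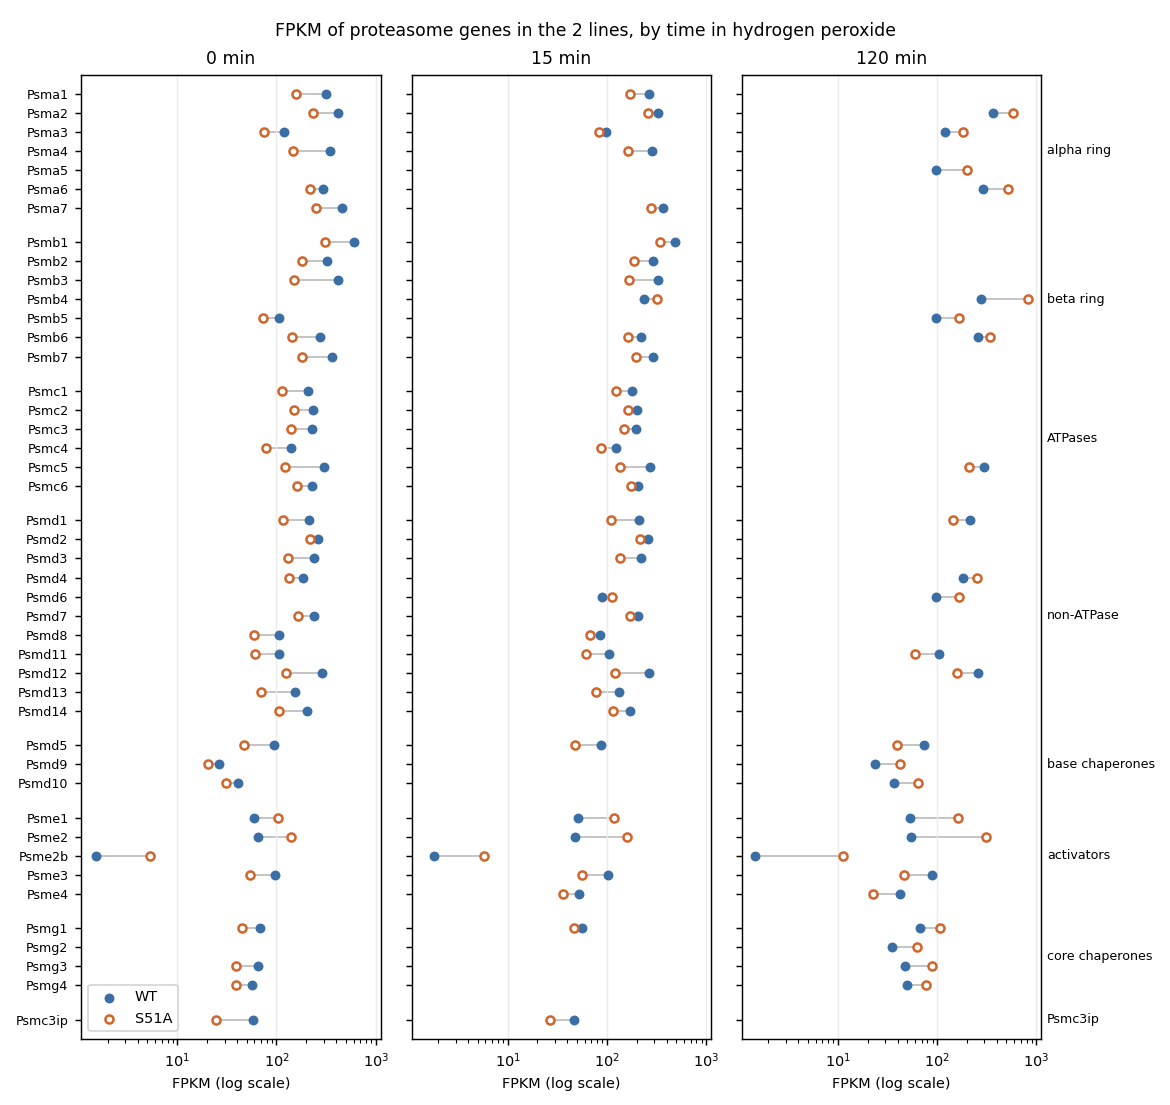
FPKM on a log axis of each of the 44 genes in WT (filled) and S51A (open) at 0, 15 and 120 min, with 1 authors' group value per point, no error bars available, and no point where a gene was not listed. At 0 min 36 of 39 listed genes lie lower in S51A, and at 120 min 18 of 25 lie higher.

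To let the members' upstream sequence be read beside these directions, RefSeq promoter sequences (build GRCm38.p6) were searched in windows from 250 bases before to 50 bases after each gene start. Promoters were found for 37 of the 44 members and not for Psmb1, Psmb2, Psmb7, Psmc3, Psmd3, Psmd7 and Psmg2. CCGGAAG, the core of sites for ETS factors, was read on both strands and lay in 15 of the 37 (40.5%), where it lay in 12.9% of 17491 coding genes and in 8.86% of all 32851 promoters. Among members it was in 9 of 17 Psmc and Psmd genes and in 1 of 11 core genes. TGACNNNGC, the core of the antioxidant response element that the products of Nfe2l1 and Nfe2l2 bind, lay in 6 of 37 (16.2%), where 14.8% of coding genes and 12.4% of all promoters held it. Those 6 were Psmb5, Psmb6, Psmc6, Psmd9, Psmd12 and Psme4. CCAAT, the box bound by NF-Y, lay in 13 of 37 (35.1%), where 42.3% of coding genes and 37.4% of all promoters held it. A match is a description of letters and no evidence of binding, and short matches of different motifs can overlap.

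The 100 bases directly before the gene start are printed below, 5′ to 3′ on the gene's strand, with matches to the searched motifs on either strand in capitals. They were chosen among windows that overlap no annotated exon, to set genes of different course side by side. Psmd11 and Psmg1 both hold CCGGAAG, and the former was lower at all times while the latter turned from lower to higher. Psmd9 holds TGACNNNGC and turned. Psmd4, which also turned, and Psme3, lower at all times, both hold a CCAAT box. Psmd4 holds in addition the interferon-related motif described after the sequences. Outside the printed bases but in the searched window, CCGGAAG also lay in Psmd4 (at -125 from the gene start) and in Psme3 (at -107 and 3). Further CCAAT matches lay there in Psmd4 (at 2 and 21). The interferon-related motif lay likewise in Psmd9 (at -159).
Psmd11 (chr11:80428515-80428614, plus strand): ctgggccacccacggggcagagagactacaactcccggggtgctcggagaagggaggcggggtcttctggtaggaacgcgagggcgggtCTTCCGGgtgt
Psmg1 (chr16:95990961-95991060, minus strand): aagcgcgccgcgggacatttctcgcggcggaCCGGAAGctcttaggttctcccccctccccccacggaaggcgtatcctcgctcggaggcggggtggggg
Psmd9 (chr5:123228090-123228189, plus strand): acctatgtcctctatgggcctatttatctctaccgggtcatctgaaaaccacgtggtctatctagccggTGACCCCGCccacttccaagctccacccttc
Psmd4 (chr3:95042615-95042714, minus strand): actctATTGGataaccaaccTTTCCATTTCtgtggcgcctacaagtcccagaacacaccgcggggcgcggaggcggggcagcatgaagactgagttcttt
Psme3 (chr11:101316113-101316212, plus strand): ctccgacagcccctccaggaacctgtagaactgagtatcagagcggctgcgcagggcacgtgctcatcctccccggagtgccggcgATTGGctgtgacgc
The same CCGGAAG word thus stood before a gene that turned and before another that did not. The core of the interferon-stimulated response element, GAAA repeated after a gap of 2 bases, was added to the search after the values had been seen. It lay in 5 of 37 members (13.5%), where 3.94% of coding genes and 3.44% of all promoters held it. The 5 were Psmb3, Psmd4, Psmd9, Psmg4 and Psme1, and only Psme1 was higher at all times.

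Alpha subunits form the outer rings and the gate. At 0 min 6 of 7 were lower, with group values of 119 to 452 FPKM in WT and 75.6 to 249 FPKM in S51A. Of all listed entries 50.4% were lower at 0 min, and 78.7% of those with at least 50 FPKM in either line. Psma4 differed most among them, at 350 FPKM in WT against 147 in S51A, a 2.38-fold difference. After 15 min it was at 284 FPKM in WT against 162 in S51A. Psma1 was at 313 and 159 FPKM (WT, then S51A) at 0 min and at 267 and 172 FPKM at 15 min. Psma7, the most abundant alpha gene at both times, was at 452 and 249 FPKM and then at 372 and 278 FPKM. None of these 3 was listed at 120 min.

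The 4 alpha genes that were listed at 120 min were all higher. Of all listed entries 50.9% were higher at 120 min, and 62% of those with at least 50 FPKM in either line. Psma2 (chromosome 13, 14613242 to 14625673, GRCm38) was at 413 FPKM in WT against 231 in S51A at 0 min, and at 331 and 263 FPKM at 15 min. At 120 min it was at 365 FPKM in WT against 580 in S51A. The WT value at 120 min lay between those at 0 and 15 min, whereas the S51A value lay above both of its earlier ones. Psma3 was at 119 and 75.6 FPKM, then at 97.7 and 83.3 FPKM, and at 120 min at 121 and 184 FPKM. Psma6 was at 294 and 217 FPKM at 0 min and at 292 and 523 FPKM at 120 min. The deposited interval of Psma6 spans 6.19 times its RefSeq gene length and that of Psma3 1.55 times, so their reads lie in intervals that hold more than the gene. Psma5 was listed at 120 min alone, at 97.7 FPKM in WT against 198 in S51A.

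Beta subunits form the inner rings. The 3 catalytic ones were all lower at 0 min, as were 78.7% of all listed entries with at least 50 FPKM in either line. Psmb5, the chymotrypsin-like subunit, was at 106 FPKM in WT against 73 in S51A, and at 120 min at 97.7 FPKM in WT against 168 in S51A. Psmb6, the caspase-like subunit (chromosome 11, 70525324 to 70527858), was at 276 and 142 FPKM at 0 min, at 220 and 163 FPKM at 15 min and at 261 and 343 FPKM at 120 min. Psmb7, the trypsin-like subunit, was at 362 and 180 FPKM at 0 min and at 294 and 199 FPKM at 15 min, and was not listed later. Psmb5 and Psmb6 thus lay on opposite sides at 0 and 120 min. The call for Psmb6 at 120 min was close to the limit, with a q-value of 0.0443 in the authors' deposited table.

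Each catalytic subunit has an immunoproteasome counterpart, which replaces it in cells exposed to interferon. Psmb8, the counterpart of Psmb5, was at 0.268 FPKM in WT against 43.4 in S51A at 0 min. It was at 0.334 and 81 FPKM at 120 min, so in S51A its level lay below that of Psmb5 at both times. Psmb9, the counterpart of Psmb6, was at 0.221 and 4.08 FPKM at 0 min and at 0.299 and 6.28 FPKM at 120 min. Psmb10, the counterpart of Psmb7, was at 18.3 and 27.5 FPKM at 15 min and at 20.8 and 55.7 FPKM at 120 min.

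Among structural beta subunits, Psmb3 had the lowest ratio of all members at 0 min, at 419 FPKM in WT against 150 in S51A, a 2.79-fold difference. At 15 min it was at 326 and 169 FPKM. Psmb1, the most abundant listed member at 0 and 15 min, was at 605 and 311 FPKM and then at 484 and 345 FPKM. Psmb2 was at 320 and 179 FPKM and then at 294 and 187 FPKM. Psmb4 (chromosome 3, 94884324 to 94886958) was the exception in the core particle. It was not listed at 0 min and was higher at 15 min, at 239 FPKM in WT against 320 in S51A. At 120 min it was at 280 FPKM in WT against 815 in S51A, a 2.91-fold difference, with the highest S51A value of any member at any time.

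The 6 Psmc ATPases unfold substrates at the mouth of the barrel. All 6 were lower at 0 min and at 15 min. Of all listed entries with at least 50 FPKM in either line, 78.7% and 69% were lower at these times. A single ATPase gene was listed at 120 min. That was Psmc5 (chromosome 11, 106256185 to 106263112), at 302 FPKM in WT against 121 in S51A at 0 min, 272 and 136 FPKM at 15 min, and 298 and 211 FPKM at 120 min. Its WT level was nearly level over time, and its S51A value at 120 min lay above the earlier ones yet below WT. The other ATPases ran from 139 to 232 FPKM in WT and from 79.3 to 162 FPKM in S51A at 0 min. Psmc4 was the lowest of them, at 139 and 79.3 FPKM, and then at 124 and 88 FPKM. Psmc6 had the smallest difference, at 228 and 162 FPKM and then at 207 and 176 FPKM.

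Of the 11 non-ATPase subunits 3 were lower at all times, 2 were higher at 120 min and 6 were not listed at 120 min. Of all listed entries 49.1% were lower and 50.9% higher at 120 min. The share of all listed genes that were lower at all times was not computed. Psmd11, a lid subunit (chromosome 11, 80428615 to 80473248), was at 106 FPKM in WT against 60.1 in S51A at 0 min, 106 and 61.8 FPKM at 15 min and 105 and 59.7 FPKM at 120 min. Neither line moved with treatment by more than a few FPKM. Psmd12, another lid subunit, was at 290 and 124 FPKM, then 265 and 122 FPKM, then 260 and 158 FPKM. The base scaffold gene Psmd1 was at 214 and 115 FPKM, then 209 and 111 FPKM, then 214 and 145 FPKM. All 3 were lower at every time.

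On the other side stood Psmd4 and Psmd6. Psmd4, a ubiquitin receptor, was at 187 FPKM in WT against 134 in S51A at 0 min and at 181 and 251 FPKM at 120 min. Psmd6, a lid subunit, was at 90.5 and 112 FPKM at 15 min and at 97 and 165 FPKM at 120 min. The remaining 6 were lower at 0 and 15 min and not listed at 120 min. Psmd13, a lid subunit, differed most of these, at 154 and 70 FPKM and then at 132 and 77.7 FPKM. Psmd14, the deubiquitinase of the lid, was at 202 and 107 FPKM and then at 171 and 116 FPKM. The base scaffold gene Psmd2 differed least, at 260 and 217 FPKM and then at 263 and 217 FPKM. The lid genes Psmd3, Psmd7 and Psmd8 lay between these, with Psmd3 at 239 and 131 FPKM, Psmd7 at 236 and 165 FPKM and Psmd8 at 106 and 58.9 FPKM at 0 min.

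Psmd5, Psmd9 and Psmd10 encode chaperones that assemble the ATPase base and are absent from the finished particle. Psmd5 was lower throughout, at 93.7 FPKM in WT against 47.5 in S51A at 0 min, 87.4 and 47.5 FPKM at 15 min and 74.5 and 39.4 FPKM at 120 min. Psmd9 turned, from 26.2 and 20.4 FPKM at 0 min to 23.9 and 41.9 FPKM at 120 min. Psmd10 also turned, from 40.5 and 30.7 FPKM to 36.8 and 63.6 FPKM. The 3 base chaperones therefore did not share a course.

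The Psmg chaperones build the core particle. All 4 were higher at 120 min, and the 3 listed at 0 min had been lower. Their transcripts are 555 to 1059 nt long. Of all listed entries under 1500 nt 87.2% were higher at 120 min and 74.1% lower at 0 min, so these counts are not particular to the Psmg genes. Psmg1 was at 68.6 FPKM in WT against 44.9 in S51A, then 56.5 and 47.2 FPKM, then 66.7 and 106 FPKM. Psmg3 was at 64.9 and 39.4 FPKM at 0 min and at 47.8 and 88.6 FPKM at 120 min. Psmg4 was at 56.9 and 38.9 FPKM and then at 49.9 and 77.7 FPKM. Psmg2 was listed at 120 min alone, at 35.5 and 62.2 FPKM.

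The activators held the members with the highest ratios at each time and, at 120 min, some of the lowest. Psme1 and Psme2 encode the paired subunits of an activator that interferon induces, and they lie next to each other on chromosome 14 (55578494 to 55581527 and 55587440 to 55591101). Psme1 was at 59.3 FPKM in WT against 104 in S51A at 0 min, 51.3 and 119 FPKM at 15 min and 53.8 and 164 FPKM at 120 min. Psme2 was at 65.3 and 139 FPKM, then 48.2 and 161 FPKM, then 54.9 and 309 FPKM. The difference for Psme2 was 2.13-fold at 0 min, 3.34-fold at 15 min and 5.62-fold at 120 min. The deposited interval of Psme1 spans 2.23 times its RefSeq gene length, so its reads also lie in an interval wider than the gene. In both genes the WT value lay highest at 0 min and the S51A value lay highest at 120 min.

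Psme2b is a copy of Psme2 whose longest annotated transcript is identical to that of Psme2 at 789 of 794 aligned bases (99.4%). It was at 1.52 FPKM in WT against 5.28 in S51A at 0 min, 1.83 and 5.74 FPKM at 15 min and 1.48 and 11.2 FPKM at 120 min. Reads of this pair may be shared, and its deposited interval spans 31.9 times its RefSeq gene length, so the separate level of Psme2b is uncertain. Psme3, the nuclear relative of Psme1 and Psme2, went the other way. It was at 97.7 FPKM in WT against 54.6 in S51A at 0 min, 102 and 56.1 FPKM at 15 min and 88 and 46.5 FPKM at 120 min. Psme4, a large nuclear activator, was not listed at 0 min and was at 52 and 36 FPKM at 15 min and 42.2 and 22.5 FPKM at 120 min. The plot of log2 ratios by particle shows this split among the activators.

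**Figure D2:**
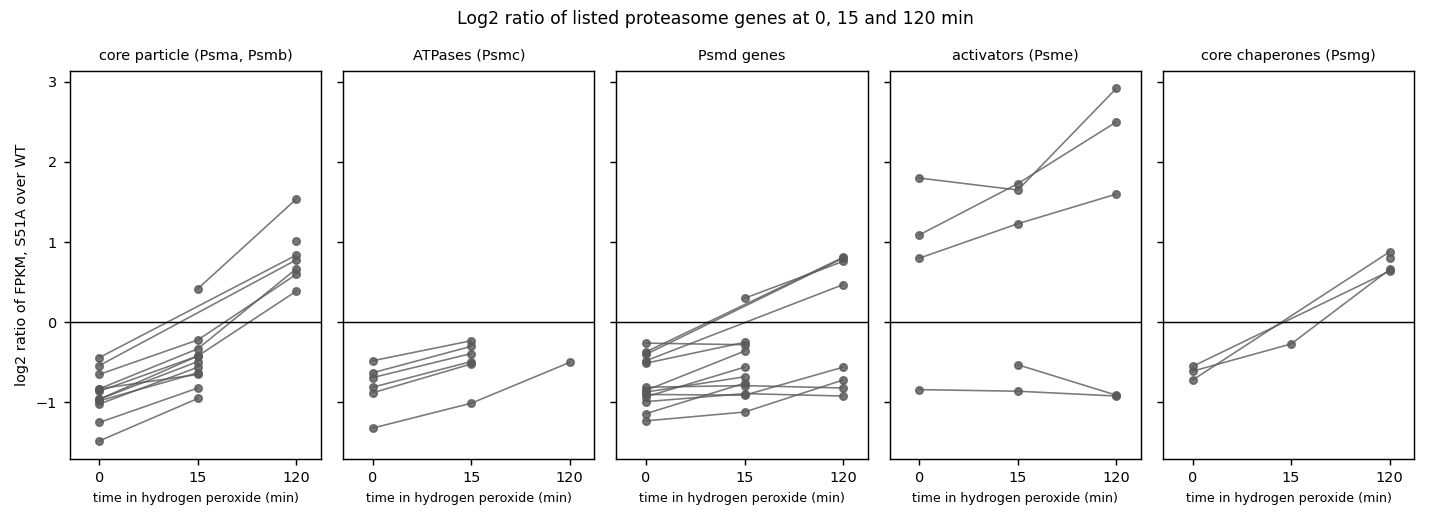
Deposited log2 ratio of FPKM, S51A over WT, at 0, 15 and 120 min for each listed gene (1 line per gene, points only where listed), by particle. Core genes run from -1.48 to -0.44 at 0 min and from 0.39 to 1.54 at 120 min, whereas Psme3 runs from -0.84 to -0.92.

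Set side by side, the core and regulatory genes were all lower where listed before treatment. After 120 min the listed core genes were all higher and the listed regulatory genes were split. At 0 min the median log2 ratio in the authors' deposited table was -0.91 for 12 core genes and -0.81 for 19 Psmc and Psmd genes. At 15 min it was -0.49 for 11 core genes and -0.52 for 17 Psmc and Psmd genes. At 120 min all 7 listed core genes were higher, with a median of 0.78 in the authors' deposited table. Of 9 listed Psmc and Psmd genes 4 were higher and 5 lower, with a median of -0.50 in the authors' deposited table. The Psmd genes alone, base chaperones included, had a median of -0.05, and the 1 listed Psmc gene was at -0.50. All 5 core genes listed at both 0 and 120 min turned, against 3 of 8 Psmc and Psmd genes. The share of all listed genes that turned was not computed. The difference between the particles was not tested, and 7 core genes and 11 Psmc and Psmd genes were not listed at 120 min. The particles also differed in transcript length: at 120 min the median was 1904 nt for listed Psmc and Psmd genes and 1183 nt for listed core genes. Of all listed entries under 1500 nt 87.2% were higher at 120 min, against 60% of those from 1500 nt to under 3000 nt. The part of length in the split between the particles was not tested.

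Within each line, the members listed at both 0 and 120 min mostly rose in S51A and changed little in WT. Changes over time were computed as log2(FPKM + 1) at the later time minus that at 0 min, less the median over all genes listed at both times. Normalization may differ from table to table, and the tables carry no test between times, so these are descriptions. Over the 20 members listed at 0 and 120 min, the median change was 1.17 in S51A (range -0.09 to 1.5) and -0.02 in WT (range -0.33 to 0.13). The 4330 genes listed in both tables had a median of -0.18 in S51A and -0.10 in WT before centring. In S51A 17 of the 20 were above their 0 min value before centring, where 38% of those 4330 genes were. In WT 18 of the 20 were below their 0 min value and 1 was above it, where 30.5% of the 4330 genes were above. Psma2 had the highest S51A change, 1.5, and Psmd5 the lowest, -0.09. The rise in S51A was not confined to the turning genes. Psme2, higher at both times, rose by 1.32, and Psmc5, lower at both, by 0.97. Psmd5, Psmd11 and Psme3 were below their 0 min value in S51A before centring. Across 4102 listed genes the change in log2 ratio from 0 to 120 min had a Pearson r of -0.65 with log2 transcript length. The part of length in the members' rise was not tested. Genes had to differ between the lines at both times to be seen here, so the members that were not listed may have moved otherwise.

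At 15 min the lines moved in opposite ways by small amounts. Over the 32 members listed at 0 and 15 min, the median centred log2 change was -0.22 in WT (range -0.44 to 0.16) and 0.10 in S51A (range -0.06 to 0.19). Before centring, 28 of the 32 were below their 0 min value in WT, and 28 of the 32 were above it in S51A. The share of all 6374 genes above their 0 min value was 51% in WT and 55.1% in S51A. The median log2 ratio of all listed entries under 1500 nt was -0.64 at 0 min and 0.22 at 15 min. From 1500 nt to under 3000 nt it was -0.37 and 0.29, and from 3000 nt it was 0.45 and -0.24. A shift of the ratio between these times was thus not particular to the members. The part of length and level in the members' changes was not tested. The plot of the 13 genes listed at all times shows both steps.

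**Figure D3:**
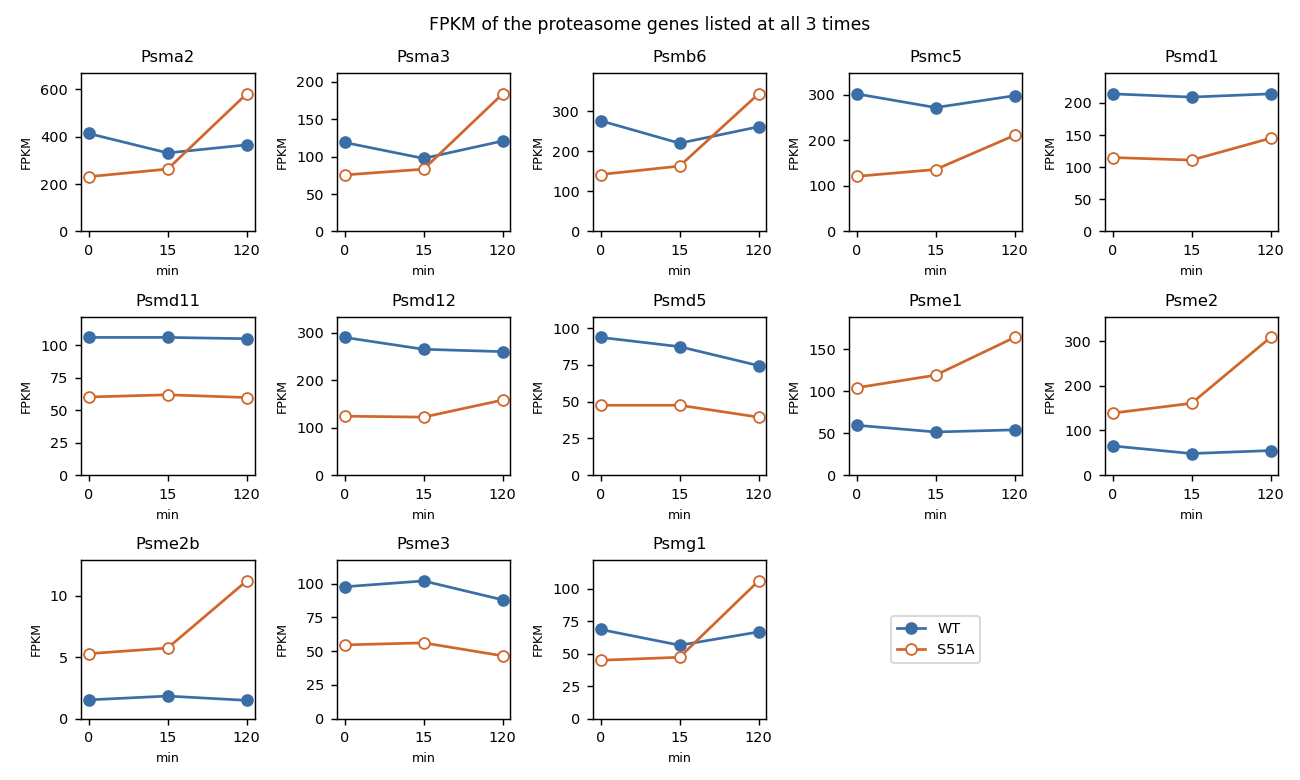
FPKM (linear axis from 0) of the 13 members listed at all 3 times, in WT (filled) and S51A (open) against time in H2O2, with times evenly spaced and 1 authors' group value per point. Psma2, Psma3, Psmb6 and Psmg1 cross between 15 and 120 min, the 6 genes Psmc5, Psmd1, Psmd11, Psmd12, Psmd5 and Psme3 stay lower in S51A, and Psme1, Psme2 and Psme2b stay higher.

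Transcript length moved with the ratio among members mainly at 120 min. Lengths are those of the principal GENCODE transcript on GRCm38. The Pearson r and Spearman rho of log2 ratio with log2 length were -0.19 and -0.05 over 39 members at 0 min, against 0.14 and 0.24 over 7232 listed genes. At 15 min they were -0.33 and -0.20 over 35 members, against -0.05 and -0.06 over 7867 genes. At 120 min they were -0.63 and -0.58 over 25 members, against -0.29 and -0.42 over 5780 genes. At 0 min 74.1% of all listed entries under 1500 nt were lower, 56% of those from 1500 nt to under 3000 nt and 38.6% of those of 3000 nt and over. The members were lower in 17 of 20, 17 of 17 and 2 of 2 cases. At 15 min the same classes held 49.2%, 46.9% and 52.8% lower entries, and the members were lower in 11 of 16, 16 of 16 and 3 of 3 cases. At 15 min the members' share of lower calls was above that of entries of like length in each class, without a test. These classes do not hold level alike. Of entries with at least 50 FPKM in either line 69% were lower at 15 min, against 29 of 33 such members. The part of length and level was not tested.

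At 120 min 87.2% of all listed entries under 1500 nt were higher, against 15 of 16 members, the exception being Psmc5 at 1316 nt. From 1500 nt to under 3000 nt 60% of entries and 3 of 6 members were higher. Of entries of 3000 nt and over 31.4% were higher, and the 3 members, Psmd1, Psmd5 and Psme4, were all lower. Across the 20 members listed at both times, the change in log2 ratio from 0 to 120 min had a Pearson r of -0.59 and a Spearman rho of -0.52 with log2 length. Across 4102 listed genes both were -0.65. These are correlations across genes that share libraries, and genes are not independent replicates. The part of length in the members' turn was not tested.

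**Figure D4:**
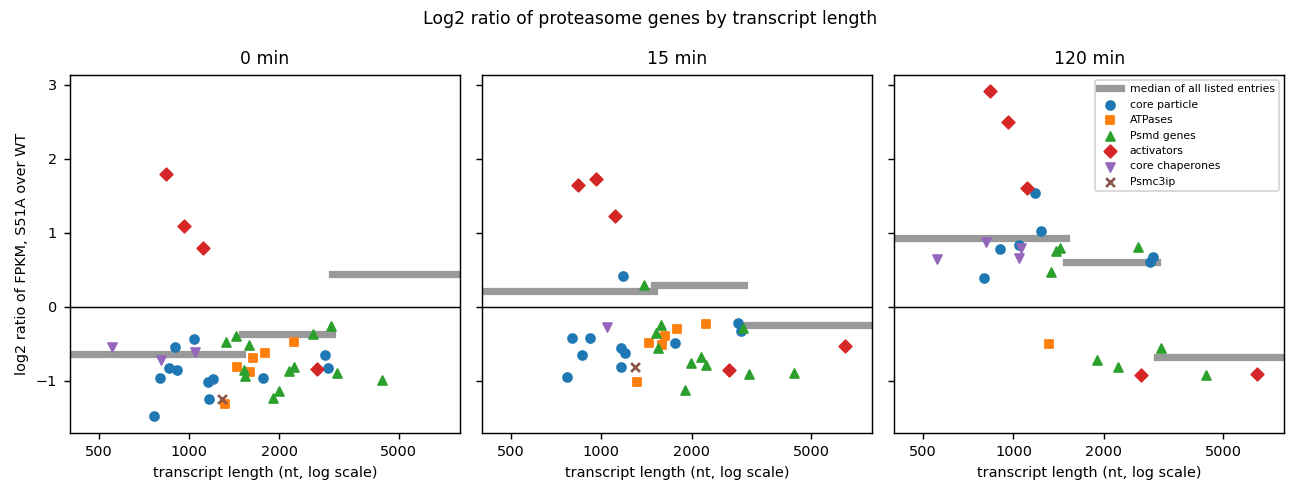
Deposited log2 ratio of FPKM, S51A over WT, against principal transcript length (log axis) for the members by particle at each time, with grey bars for the median of all listed entries in 3 length classes. At 0 min most members lie below the grey bars. At 120 min the members under 1500 nt lie on both sides of the bar at 0.93, from Psmc5 at -0.50 to Psme2b at 2.92.

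Partner genes of the proteasome, from a list of 31, were also mostly lower before treatment. At 0 min 16 of 20 listed partners were lower (50.4% of all listed entries), at 15 min 16 of 20 were lower (50.1%) and at 120 min 10 of 23 were higher (50.9%). The listed partners had a median of 93.7 FPKM in WT at 0 min. Of all listed entries with at least 50 FPKM in either line, 78.7% were lower at 0 min and 69% at 15 min. The partners' share of 80% at 0 min is near the former, so it is not particular to them. The part of level and length in these counts was not tested. Pomp, which matures the core particle, turned from lower to higher. It was at 440 FPKM in WT against 251 in S51A at 0 min, 343 and 276 FPKM at 15 min and 393 and 680 FPKM at 120 min. How many of all listed genes turned was not computed. Shfm1, an older symbol of the small lid gene Sem1, was at 662 and 505 FPKM, then 488 and 564 FPKM, then 666 and 1574 FPKM. The ubiquitin receptor gene Adrm1 was lower throughout, at 63.6 and 35.3 FPKM, then 60.1 and 35 FPKM, then 58.5 and 36 FPKM.

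The deubiquitinase genes Usp14 and Uchl5 were lower throughout too. Uchl5 was at 94.4 FPKM in WT against 39.7 in S51A at 0 min and at 89.9 and 52.7 FPKM at 120 min. Rps27a, which encodes a fusion of ubiquitin and a ribosomal protein, was at 1144 and 541 FPKM at 0 min, 885 and 622 FPKM at 15 min and 1121 and 1859 FPKM at 120 min. Of the factors that govern subunit transcription, Nfe2l1 was listed at no time. Its activating protease gene Ddi2 was at 20.3 and 11.6 FPKM at 15 min and at 12.7 and 4.96 FPKM at 120 min. Ngly1, which removes sugars from the Nfe2l1 product, was higher at each time, at 3.16 and 7.52 FPKM at 0 min. Nfe2l2 was lower at 0 min, at 51.3 and 35 FPKM, and was not listed at 120 min.

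Psmc3ip, the gene taken by name alone, was at 58.5 FPKM in WT against 24.8 in S51A at 0 min and at 46.9 and 26.7 FPKM at 15 min. It was not listed at 120 min, and its deposited interval spans 2.47 times its RefSeq gene length.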

How the data were processed

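Each deposited table compares the lines at 1 time. Per the file headers, the authors give for both lines the log2 of FPKM, and with it their log2 ratio and its q-value. Replicates had thus been combined by the authors before deposit. STAR, Cufflinks, Cuffdiff and mm10 are named, without version, role or order, per the submitters' processing notes. An annotation was not given in the sources used here. In the deposited tables all entries are marked significant, so genes not called are not seen. The deposited ratio equals S51A minus WT within 0.01. No member was listed at 0 in either line. One further column of each was not used, 3 in all.

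FPKM was taken as 2 to the power of the deposited log2 value, and folds as the ratio of group values. With 1 value per group no test between samples could be made, so no p-value of this work is given. The planned model on values per sample was therefore not run. Changes over time used a pseudocount of 1 FPKM, which understates changes of low genes. Members and lists were chosen with earlier results of these data known, and the length and level classes after the tables were seen. All members may be named, and values are given in full for those listed at all 3 times, those that changed direction, and the 3 with the largest ratios at each time. Other genes come from fixed lists. Some listed partner genes are counted but not reported here by name. Lengths are from GENCODE vM21, positions from RefSeq GRCm38.p6, matched by symbol for all 44 members and, for lengths, for 95.7%, 94.7% and 94.5% of entries at 0, 15 and 120 min. Sequence depth is unknown. The counting and motif steps were tested on simulated data. Python 3.11.15, pandas 2.3.3 and Biopython 1.88 were used.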

Additional observations from a re-analysis of the deposited data

How the results depend on the processing

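No paired analysis was possible because the tables give 1 value per group, and no replicate could be left out for the same reason. Of 90 recomputed counts and medians, 82 kept their direction and stayed within 1.5 times of the reported value (for medians of log2 values, within 1.5-fold after undoing the log). No median reversed, and a count could not reverse. All 8 that moved further are counts under a minimum fold or a median over fewer genes. The 82 include 6 counts over entries naming a single gene and 9 values with at least 5 FPKM in either line. These settings left out no member, so their values could not move. With a minimum of 1.5-fold, 3 members were higher and 13 lower at 15 min. With a minimum of 2-fold, 7 were lower at 0 min, 3 were higher and 2 lower at 15 min, and 5 were higher and 0 lower at 120 min. The median log2 ratio of Psmd genes at 120 min was -0.77 over those listed at all 3 times, against -0.05 over all listed. On the log2 scale itself, the same restriction also moved the Psmc median from -0.75 to -1.32 at 0 min and from -0.44 to -1.01 at 15 min, where Psmc5 alone remains, and the members' median at 120 min from 0.67 to 0.39. Without centring the WT change from 0 to 120 min was -0.12 in place of -0.02. Most listed differences were under 2-fold, and their replicate error and depth are unknown. Of single members, Psme2b at 120 min had a log2 ratio of 2.3 with 1 added to FPKM. Leaving out Psmc3ip and Psme2b, an alternative added after seeing the data, moved no count past 1.5 times. With the median length of all coding transcripts, also added later, the correlation of length with the change in ratio was -0.61 (Pearson) and -0.47 (Spearman) over the 20 members.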
